A study of Mus musculus with 9 samples.

Results

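The 10 genes described here encode the cadherins, catenins and desmosome proteins that hold intestinal epithelial cells together: Cdh1, Cdh17, Ctnna1, Ctnnd1, Jup, Dsg2, Dsc2, Dsp, Pkp2 and Pkp3. They were chosen by symbol, with Ensembl IDs matched through GENCODE M21, and all 10 were found among the 21253 genes of the deposited count table. All 10 also passed the filter on low counts. RNA was sequenced from mouse AKP tumour organoids in 9 samples, 3 in each of 3 groups. The labels used here do not spell out the alleles behind the name AKP or say whether the line is 1 clone. Doxycycline drives a hairpin RNA (shAPC) that silences Apc. Controls were kept in doxycycline (Apc off), and in the other groups doxycycline had been removed for 2 days or for 7 days, which restores Apc. All groups share the hairpin and the AKP background. Doxycycline removal, Apc restoration and time since the switch go together in this design and cannot be told apart. The labels give no promoter or cell type for the hairpin, and they describe the replicates as technical. The p-values therefore reflect only how far these samples spread.

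As background, adherens junctions join neighbouring cells through E-cadherin (Cdh1), whose tail binds beta-catenin (Ctnnb1) or plakoglobin (Jup) and, at another site, p120-catenin (Ctnnd1). Alpha-catenin (Ctnna1) links this complex to actin. Desmosomes are a separate kind of junction, in which the cadherins desmoglein and desmocollin (Dsg2 and Dsc2 in simple epithelium) bind plakoglobin and the plakophilins (Pkp2, Pkp3), and desmoplakin (Dsp) ties the plaque to keratin filaments. LI-cadherin (Cdh17) is an intestinal cadherin with a short tail that does not bind catenins. The comparisons ask how the mRNAs of these parts differ once Apc has been restored.

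Levels are CPM (counts scaled to a common TMM-adjusted library total) and changes are log2 fold changes (log2FC) ± SE from edgeR's quasi-likelihood test, with calls made at 0.05 after Benjamini-Hochberg adjustment. Libraries held 24143589 to 32277040 counts. Apc itself ran from 6.8 to 8.84 CPM in controls, 24.8 to 38.1 CPM at 2 days and 67.9 to 92.9 CPM at 7 days, the order the labels give. The 7 epithelial markers listed summed to 8746 to 11754 CPM in controls and 25932 to 35775 CPM at 7 days. Markers of stroma, endothelium and immune cells summed to at most 1.12, 2.31 and 5.8 CPM in any sample; the stromal gene Lum had no counts, and the endothelial cadherin Cdh5 had 2 counts in the controls, 4 at 2 days and 1 at 7 days. Within these lists some genes moved: the stromal gene Pdgfrb had 1, 7 and 39 counts over the 3 groups and was called higher at 7 days (edgeR adjusted p = 3.7e-06), the stromal gene Col1a2 had 49, 20 and 9 and was called lower (edgeR adjusted p = 0.00026), and the endothelial gene Tek had 96, 77 and 117 and was called higher at 7 than at 2 days (log2FC 0.88, edgeR adjusted p = 0.0034). The immune sum was 1.17 to 1.43 CPM in controls and 3.81 to 5.8 CPM at 7 days, with Csf1r at 2, 2 and 73 counts and Cd68 at 98, 121 and 255 counts over the 3 groups. Markers of mature and of crypt base cells also differed between the groups, at 2 days as well as at 7 days. The 6 enterocyte markers summed to 11.1 to 15.1 CPM in controls, 41.3 to 45.3 CPM at 2 days and 14299 to 15099.9 CPM at 7 days. In the same order, 5 goblet markers summed to 30.9 to 34.2, 172 to 176 and 3264 to 3932 CPM. For 5 crypt base markers the sums were 186 to 209.8, 35 to 35.9 and 23.1 to 26.3 CPM. The part of these marker changes in the results was not tested. In such bulk samples a change in the share of a cell type and a change of RNA per cell cannot be told apart.

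After 7 days, 9 of the 10 genes were called higher than control, with a median log2FC of 0.96 beside −0.03 over the 12535 genes tested. Of all genes, 40.5% were called higher and 41.8% lower in that comparison, 82.3% in all, so a call by itself says little at 7 days and the sizes are given gene by gene. In edgeR 0 of the 10 were called lower in any comparison, 0 had a lower value at an unadjusted p under 0.05, and limma-voom and DESeq2 called 0 lower. With library size alone as the scaling, 6 were called higher and 2 lower at 7 days. Under that scaling 34.8% of the calls over all genes were higher, and the median log2FC of all genes was −0.435. With TMM the sizes formed 3 ranges. Dsc2 and Cdh17 rose by 3.01-fold and 2.99-fold. Dsg2, Jup, Pkp2 and Pkp3 rose by 1.9-fold to 2.27-fold, and Ctnna1, Ctnnd1, Cdh1 and Dsp differed by 1.45-fold or less. Over all genes tested, 85.4% had a lower 7-day log2FC than Dsc2 and 85.3% a lower one than Cdh17. That share was 76.3% to 80.7% for Dsg2, Jup, Pkp2 and Pkp3, and 55.7% to 67.1% for Ctnna1, Ctnnd1, Cdh1 and Dsp. At 2 days 3 genes were called higher, Cdh17, Dsc2 and Pkp2, against 13.1% of all genes called higher and 23.7% called at all. Between 2 and 7 days 8 were called higher, against 39.2% of all genes called higher, 39.9% called lower and 79.1% called at all, and the other 2, Cdh1 and Dsp, did not pass. The 2-day and 7-day comparisons share the control samples.

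**Figure D1:**
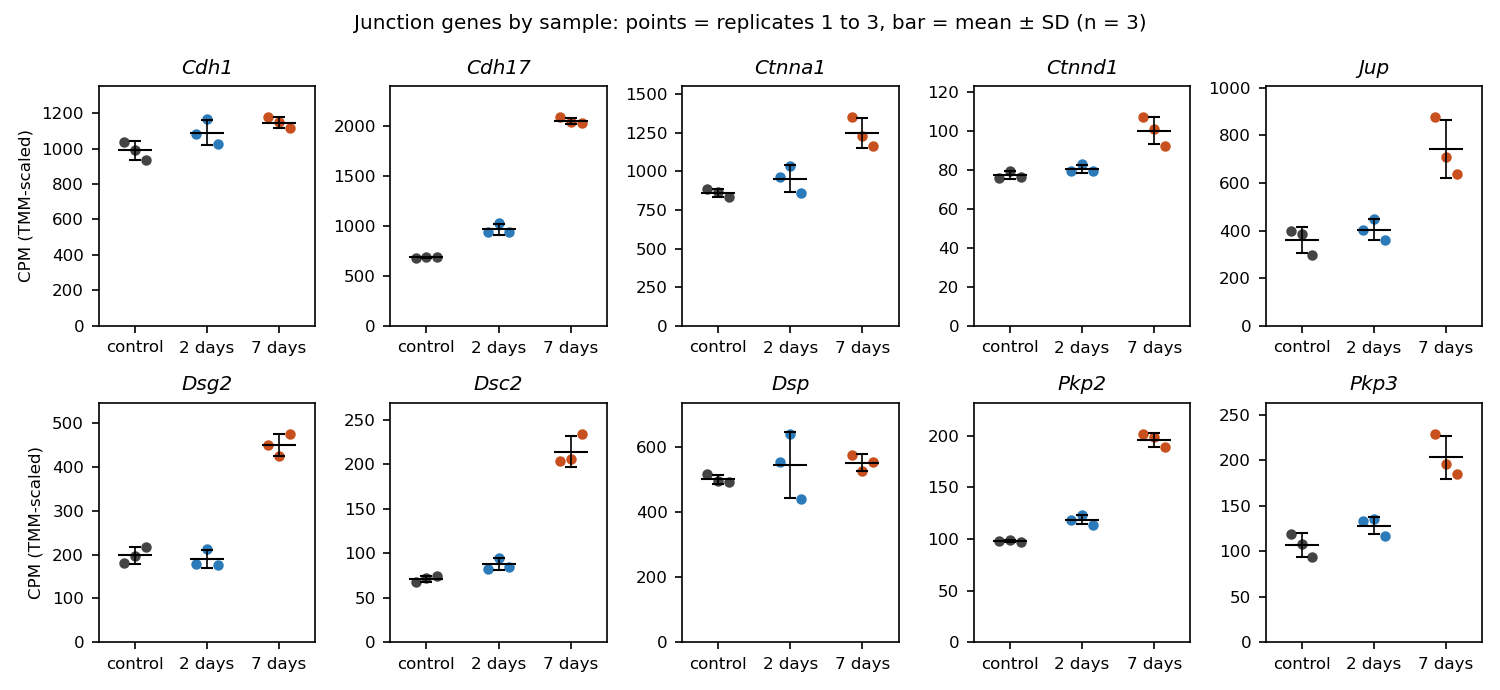
CPM of each gene (vertical axis, from 0) in every sample of the control, 2-day and 7-day groups; points are replicates and bars the mean ± SD (n = 3). Cdh17, Dsc2, Dsg2, Jup, Pkp2 and Pkp3 stand well apart at 7 days, while Cdh1 and Dsp lie near their control level in all groups.

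The 2 main cadherins of the cell surface behaved differently. Cdh1 (ENSMUSG00000000303, GRCm38 chromosome 8, 106603351 to 106670246, plus strand), the E-cadherin gene, measured 1037, 994 and 935 CPM with Apc off, 1079.7, 1165 and 1023 CPM 2 days after the switch and 1176, 1149 and 1113 CPM 7 days after it. The 2-day samples overlapped both other groups, and the 7-day samples lay above all controls by a narrow margin. The means were 989 ± 51.3, 1089 ± 71.3 and 1146 ± 31.4 CPM (SD, n = 3). The 7-day difference was 1.16-fold and passed narrowly (log2FC 0.21 ± 0.08, edgeR adjusted p = 0.029). The call was lost on leaving out control replicate 2, control replicate 3, 7-day replicate 1 or 7-day replicate 2 (edgeR adjusted p between 0.066 and 0.11), and with library size alone as the scaling Cdh1 was called lower instead (log2FC −0.19, edgeR adjusted p = 0.022). The 2-day difference did not pass (0.14 ± 0.08, edgeR adjusted p = 0.26).

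Cdh17 (ENSMUSG00000028217, chromosome 4, 11758147 to 11817895, plus strand), the LI-cadherin gene, measured 681, 687 and 687 CPM with Apc off, 937, 1026 and 934 CPM 2 days after the switch and 2083, 2035 and 2023 CPM 7 days after it. No groups overlapped, and the replicates of each group lay close together. The means were 685 ± 3.29, 965 ± 52.4 and 2047 ± 31.5 CPM (SD, n = 3). Cdh17 rose 1.41-fold by 2 days (log2FC 0.49 ± 0.08, edgeR adjusted p = 0.0003) and 2.99-fold by 7 days (1.58 ± 0.08, edgeR adjusted p = 7.6e-11). The step from 2 to 7 days was 2.12-fold (1.08 ± 0.08, edgeR adjusted p = 7.2e-09).

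The ratio of Cdh17 to Cdh1 within a sample does not depend on how libraries are scaled to each other. Per kilobase of merged exons, Cdh17 had 0.672, 0.706 and 0.752 times the counts of Cdh1 in the controls, 0.887, 0.9 and 0.933 times at 2 days, and 1.81, 1.81 and 1.86 times at 7 days. The groups did not overlap, and the balance passed from more E-cadherin mRNA to more LI-cadherin mRNA. The log2 ratio differed from control by 0.35 at 2 days and by 1.36 at 7 days, with combined SDs of 0.09 and 0.08. Exact permutation tests of 3 samples against 3 cannot go below p = 0.10, which is the two-sided p of both differences (0.162 after Benjamini-Hochberg adjustment over 21 ratio tests). With the length of the longest transcript in place of merged exons, Cdh17 and Cdh1 stood at 198 and 223 CPM per kb in controls, 279 and 246 at 2 days and 591 and 259 at 7 days, so which was higher at 2 days depends on the length used. In both forms Cdh1 was the higher in controls and Cdh17 at 7 days.

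Among the catenins, the actin linker rose modestly. Ctnna1 (ENSMUSG00000037815, chromosome 18, 35118859 to 35254779, plus strand), the alpha-catenin gene, measured 886, 867 and 835 CPM with Apc off, 964, 1036 and 863 CPM 2 days after the switch and 1351, 1229 and 1166 CPM 7 days after it. The 7-day samples lay above all others, and the 2-day samples overlapped the controls. Its rise at 7 days was 1.45-fold (log2FC 0.53 ± 0.09, edgeR adjusted p = 6.8e-05), which did not pass with library size alone as the scaling (0.13, edgeR adjusted p = 0.12).

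Ctnnd1 (ENSMUSG00000034101, chromosome 2, 84600071 to 84650765, minus strand), the p120-catenin gene, whose protein holds E-cadherin at the cell surface, measured 76.1, 79.6 and 76.5 CPM with Apc off, 79.6, 83 and 79.5 CPM 2 days after the switch and 107, 101 and 92.5 CPM 7 days after it. The 7-day samples lay above all others. The rise at 7 days was 1.29-fold (log2FC 0.37 ± 0.07, edgeR adjusted p = 0.00026), and with library size alone the value was −0.03. In GENCODE M21, 61.2% of the Ctnnd1 exon bases are also exon bases of Gm28635, a protein-coding model on the same strand that had 0 counts in all samples. Whether reads from those bases were left out of the Ctnnd1 counts was not tested, so its level is left out of the order of levels given further on.

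Jup (ENSMUSG00000001552, chromosome 11, 100368958 to 100397763, minus strand), the plakoglobin gene, belongs to both kinds of junction. It measured 399, 385 and 297 CPM with Apc off, 403, 449 and 359 CPM 2 days after the switch and 876, 709 and 637 CPM 7 days after it. The 7-day samples lay above all others although they spread widely, and the 2-day samples overlapped the controls. Jup rose 2.06-fold by 7 days (log2FC 1.04 ± 0.13, edgeR adjusted p = 2.8e-06). Its 2-day difference did not pass (0.16 ± 0.13, edgeR adjusted p = 0.41).

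Ctnnb1 (ENSMUSG00000006932, chromosome 9, 120929216 to 120960507, plus strand), the beta-catenin gene, is the partner against which the other catenins were read. It measured 791, 812 and 795 CPM with Apc off, 1025, 1049.8 and 953 CPM 2 days after the switch and 1548, 1458 and 1489 CPM 7 days after it, with no overlap of groups. It rose 1.26-fold by 2 days (log2FC 0.34 ± 0.08, edgeR adjusted p = 0.0062) and 1.87-fold by 7 days (0.91 ± 0.08, edgeR adjusted p = 4.3e-08). In GENCODE M21, 14.6% of the Ctnnb1 exon bases are also exon bases of Ulk4, a gene on the opposite strand with 412 counts over the 9 samples. Whether reads from those bases were left out of the Ctnnb1 counts was not tested, so the levels of the ratios to Ctnnb1 are uncertain. Per kilobase, Ctnna1 had 0.905, 0.863 and 0.849 times the counts of Ctnnb1 in the controls, 0.76, 0.797 and 0.732 times at 2 days, and 0.706, 0.681 and 0.633 times at 7 days. Alpha-catenin mRNA was thus lower relative to beta-catenin mRNA in every sample of the later group at each step. The log2 ratios were −0.20 ± 0.05, −0.39 ± 0.06 and −0.57 ± 0.08 (SD, n = 3). The two-sided exact permutation p was 0.10 against control at both times, the smallest possible. With other length choices the control log2 ratio was 0.07 to 0.11, so which mRNA was higher in controls depends on the length used. Gene length cancels in the differences between groups.

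The ratio of Jup to Ctnnb1, which compares the 2 catenins that can occupy the same site on E-cadherin, had overlapping groups. Its log2 values were −1.30, −1.39 and −1.73 in the controls, −1.66, −1.54 and −1.72 at 2 days and −1.13, −1.35 and −1.53 at 7 days. The difference from control was −0.16 at 2 days and 0.13 at 7 days, within the combined SDs of 0.25 and 0.30 (two-sided exact permutation p = 0.4 and 0.5), while the 7-day samples lay just above the 2-day samples. The log2 ratio of Ctnnd1 to Cdh1 was −4.35 ± 0.08 in controls, −4.43 ± 0.06 at 2 days and −4.20 ± 0.06 at 7 days (SD, n = 3). The 7-day samples lay above both other groups, by 0.16 against control (combined SD 0.10) and 0.24 against 2 days (combined SD 0.09; two-sided exact permutation p = 0.10 for both, the smallest possible), and the 2-day samples overlapped the controls. The uncertainty of the Ctnnd1 counts applies to this ratio too, and with other length choices its control value was −4.20 to −3.67.

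Both desmosomal cadherins rose by 7 days, Dsc2 by more, and Dsc2 was also called at 2 days. Dsg2 (ENSMUSG00000044393, chromosome 18, 20558074 to 20604521, plus strand), the desmoglein of simple epithelium, measured 179.9, 197 and 218 CPM with Apc off, 179, 213 and 176 CPM 2 days after the switch and 450.5, 424 and 475 CPM 7 days after it. Control and 2-day samples overlapped fully, and the 7-day samples lay far above both. Dsg2 was the 1 gene of the 10 with a lower mean at 2 days, which did not pass (log2FC −0.06 ± 0.10, edgeR adjusted p = 0.68). Its rise at 7 days was 2.27-fold (1.18 ± 0.10, edgeR adjusted p = 1.7e-08).

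Dsc2 (ENSMUSG00000024331, chromosome 18, 20030633 to 20059554, minus strand), the desmocollin that pairs with Dsg2, measured 67.3, 72.1 and 74.1 CPM with Apc off, 82.8, 95.2 and 84.5 CPM 2 days after the switch and 203, 206 and 234 CPM 7 days after it, with no overlap of groups. It rose 1.23-fold by 2 days (log2FC 0.30 ± 0.08, edgeR adjusted p = 0.018), a call lost on leaving out control replicate 1, control replicate 2 or 2-day replicate 2 (edgeR adjusted p between 0.062 and 0.074). By 7 days it had risen 3.01-fold (1.59 ± 0.09, edgeR adjusted p = 1.2e-10). Per kilobase, Dsc2 had 0.586, 0.575 and 0.533 times the counts of Dsg2 in the controls, 0.725, 0.699 and 0.75 times at 2 days, and 0.706, 0.762 and 0.771 times at 7 days. The ratio had moved by 0.36 log2 units at 2 days (combined SD 0.09) and by 0.40 at 7 days (combined SD 0.10), and the 2-day and 7-day samples overlapped. The control log2 ratio was −0.83 here and −1.47 to −1.16 with other length choices. Gene length cancels in the differences between groups, so they cannot depend on that choice. Both tests against control gave a two-sided exact permutation p = 0.10, the smallest possible.

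The plakophilins, armadillo proteins that gather desmosomal cadherins and desmoplakin in the plaque, rose side by side. Pkp2 (ENSMUSG00000041957, chromosome 16, 16213318 to 16272712, plus strand) measured 98.2, 99.3 and 97.3 CPM with Apc off, 119, 123 and 114 CPM 2 days after the switch and 202, 199 and 189 CPM 7 days after it. No groups overlapped. It rose 1.21-fold by 2 days (log2FC 0.27 ± 0.07, edgeR adjusted p = 0.0096) and 2-fold by 7 days (1.00 ± 0.07, edgeR adjusted p = 2.7e-09).

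Pkp3 (ENSMUSG00000054065, chromosome 7, 141078218 to 141090510, plus strand) measured 119, 108 and 93.3 CPM with Apc off, 133, 135 and 117 CPM 2 days after the switch and 229, 196 and 185 CPM 7 days after it. The 7-day samples lay above all others, and the lowest 2-day sample lay below the highest control. Its 2-day difference missed the threshold (0.26 ± 0.10, edgeR adjusted p = 0.082) but passed with the replicate number as a block (edgeR adjusted p = 0.004) and in 6 other runs. At 7 days it had risen 1.9-fold (0.93 ± 0.10, edgeR adjusted p = 6.8e-07). Within a sample, the log2 ratio of Pkp3 to Pkp2 was 0.68 ± 0.17 in controls, 0.68 ± 0.06 at 2 days and 0.61 ± 0.12 at 7 days (SD, n = 3), and all groups overlapped. The difference at 7 days was −0.07 with a combined SD of 0.21 (two-sided exact permutation p = 0.7).

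Dsp (ENSMUSG00000054889, chromosome 13, 38151294 to 38198577, plus strand), the desmoplakin gene, was the member that did not pass at any time. It measured 515, 494 and 489.9 CPM with Apc off, 554, 639 and 438 CPM 2 days after the switch and 574, 524 and 554 CPM 7 days after it. The 2-day samples spread on both sides of the other groups, and the 7-day samples lay just above the controls. The means were 499.9 ± 13.7, 544 ± 101 and 551 ± 24.8 CPM (SD, n = 3), with a log2FC of 0.12 ± 0.11 at 2 days (edgeR adjusted p = 0.48) and 0.14 ± 0.11 at 7 days (edgeR adjusted p = 0.25). With library size alone as the scaling Dsp was called lower at 7 days (log2FC −0.26, edgeR adjusted p = 0.037). Set against its plaque partner in the same sample, Dsp had 0.861, 0.856 and 1.1 times the counts of Jup per kilobase in the controls, 0.916, 0.948 and 0.812 times at 2 days, and 0.436, 0.493 and 0.579 times at 7 days. The 7-day samples were apart from both other groups, by −0.90 log2 units against control (combined SD 0.29; two-sided exact permutation p = 0.10, the smallest possible) and −0.83 against 2 days. The 2-day ratio overlapped the controls (−0.07, combined SD 0.24). The level of this ratio depends on the gene model: its control log2 value was −0.10 with merged exons, −1.10 with the longest transcript and 0.48 with no length scaling. The differences between groups cannot depend on it, because gene length cancels in them.

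**Figure D2:**
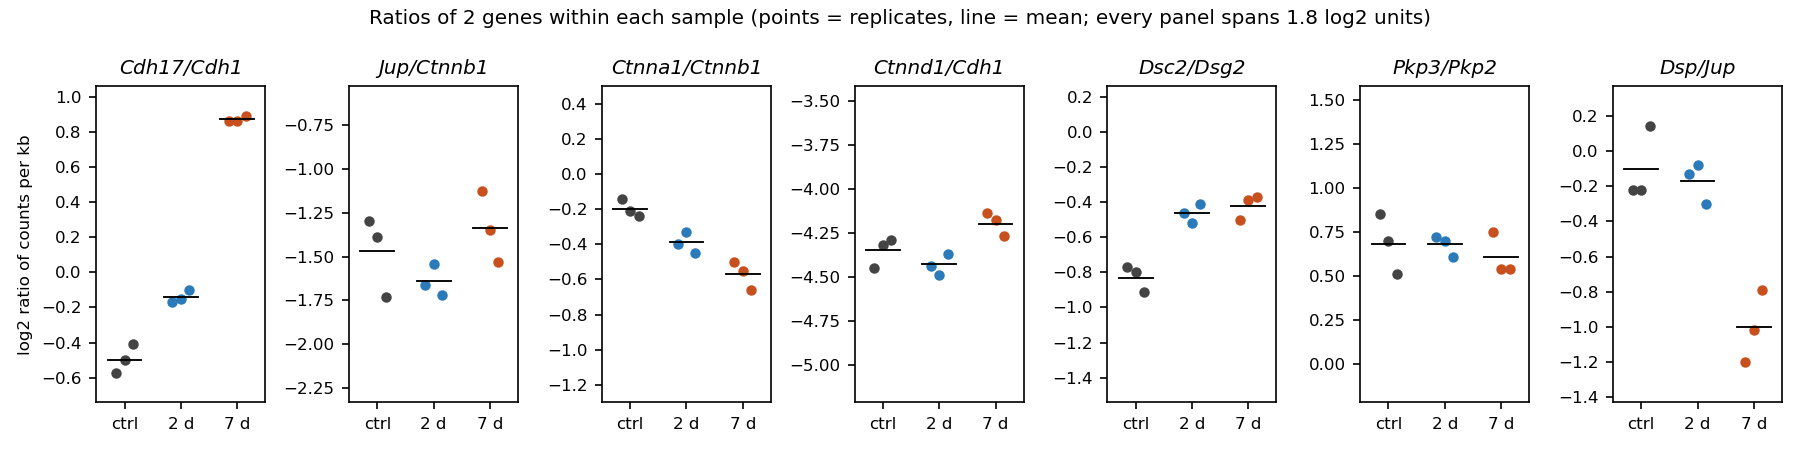
Log2 ratio of counts per kilobase of merged exons (vertical axis) for 7 pairs of genes, each ratio taken within a sample; points are replicates and lines group means of control (ctrl), 2 days (2 d) and 7 days (7 d). Cdh17/Cdh1 climbs from −0.50 to 0.87, Dsp/Jup drops from −0.10 by 0.90 at 7 days, and Pkp3/Pkp2 stays between 0.61 and 0.68.

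Jup and Dsp encode proteins of the same plaque whose mRNAs diverged at 7 days, so the 250 bases before the start of each gene are shown. They come from RefSeq (GRCm38.p6), where 3 of the 10 genes had an entry, Ctnnd1 being the third. The Jup stretch is chr11:100397791-100398040 on the minus strand and the Dsp stretch chr13:38151044-38151293 on the plus strand, each written 5′ to 3′ towards the gene; capitals mark the GC box GGGCGG or its reverse complement.
Jup: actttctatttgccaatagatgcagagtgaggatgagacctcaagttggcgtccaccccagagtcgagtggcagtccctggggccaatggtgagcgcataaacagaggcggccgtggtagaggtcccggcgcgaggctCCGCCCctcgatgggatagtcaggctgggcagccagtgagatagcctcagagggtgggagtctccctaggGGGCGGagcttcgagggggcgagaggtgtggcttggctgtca
Dsp: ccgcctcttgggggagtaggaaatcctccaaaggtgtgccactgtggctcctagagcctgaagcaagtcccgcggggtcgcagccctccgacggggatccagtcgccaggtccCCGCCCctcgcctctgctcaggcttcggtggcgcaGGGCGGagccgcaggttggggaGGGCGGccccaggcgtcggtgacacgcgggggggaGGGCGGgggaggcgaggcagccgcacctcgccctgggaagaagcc
The Jup stretch held 2 GC boxes and the Dsp stretch 4, and 32.7% of 32851 mouse promoter windows of this length held at least 1. Neither stretch held an E-box (CANNTG on both strands, found in 66.2% of windows). The narrower form CAGGTG, which Snai factors bind, was thus absent too, and only 17.2% of windows held it. The TCF/LEF core CTTTGA (13.8% of windows) was also absent from each stretch. The KLF letters CACCC occurred 2 times before Jup, starting 197 and 61 bases before the start and so apart from its GC boxes at 112 and 42, and 0 times before Dsp (52% of windows). GC content was 62% and 72.4%, beside a median of 52.4% over all windows. These matches describe the letters only.

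Per kilobase of merged exons the controls held most Cdh1 mRNA (216 ± 11.2 CPM per kb), then Cdh17 (153 ± 0.736), Ctnna1 (134 ± 4), Jup (56 ± 8.58), Dsp (51.8 ± 1.42), Pkp3 (29.6 ± 3.58), Dsg2 (24 ± 2.29), Pkp2 (18.3 ± 0.184) and Dsc2 (13.5 ± 0.668; SD, n = 3). Jup and Dsp overlapped, as did Pkp3 and Dsg2, and the other neighbours did not. At 7 days the order began with Cdh17 (458 ± 7.04), Cdh1 (251 ± 6.86), Ctnna1 (194 ± 14.7) and Jup (115 ± 19). Dsp (57 ± 2.56), Pkp3 (56.2 ± 6.41) and Dsg2 (54.4 ± 3.11) then overlapped, followed by Dsc2 (40.6 ± 3.22) and Pkp2 (36.6 ± 1.28). Desmoplakin mRNA, at more than the level of either desmosomal cadherin in controls, was thus level with Dsg2 at 7 days on this scale. With the longest transcript as the length, Ctnna1 came before Cdh1 and Cdh17 in controls, Jup (112 CPM per kb) stood well above Dsp (52.1) in controls, and Dsp (57.4) came after Dsg2 (78) at 7 days, so these places depend on the gene model.

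**Figure D3:**
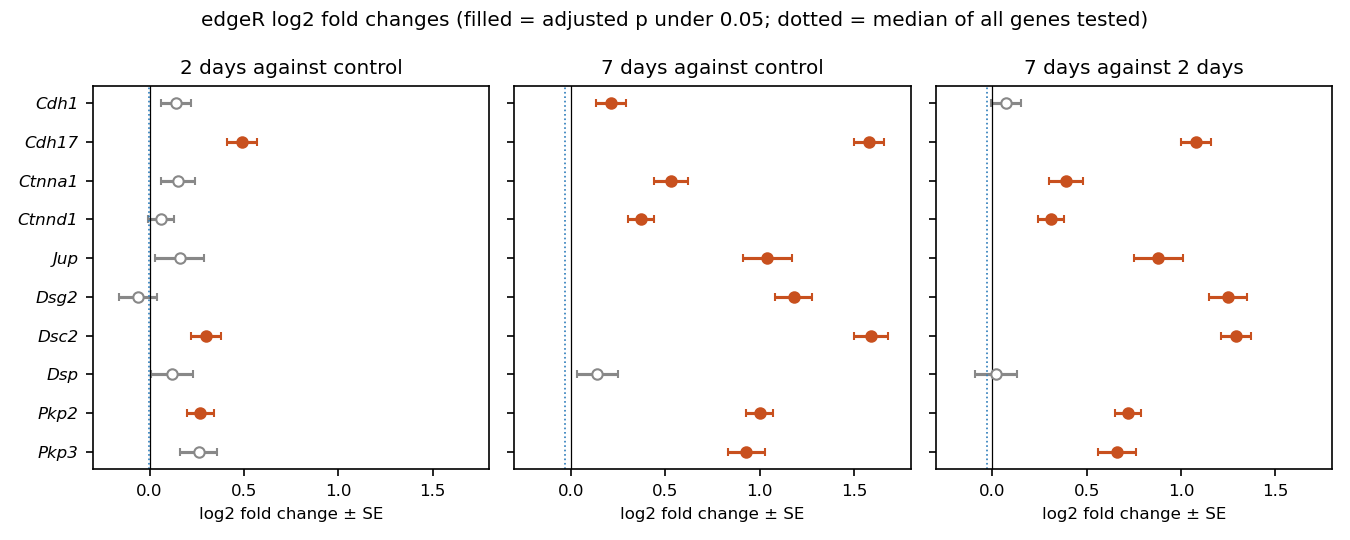
edgeR log2 fold changes ± SE (horizontal axis) of the 10 genes (rows) in the 3 comparisons; filled points have an adjusted p under 0.05 and the dotted line is the median of all 12535 genes tested. Dsc2 and Cdh17 lie furthest to the right at 7 days, at 1.59 and 1.58, and Dsp and Cdh1 nearest to 0.

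How libraries are scaled moved all members by about the same amount. Against TMM, library size alone shifted their 7-day log2FC by a median of −0.40, upper-quartile factors by −0.10 and DESeq2 size factors by 0.04, and over all genes tested library size alone put the median at −0.44. Of the calls at 7 days, 34.8% were then higher, beside 49.2% with TMM. The order of the 10 genes by 7-day log2FC was the same under all 4 scalings. A scaling multiplies all genes of a sample by 1 factor, so the common shift and the kept order were largely fixed in advance. They are no check of the ranking. Cdh17 ranged from 1.18 to 1.62 and Dsc2 from 1.19 to 1.63, while Ctnnd1 (−0.03 to 0.41), Cdh1 (−0.19 to 0.25) and Dsp (−0.26 to 0.18) crossed 0.

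**Figure D4:**
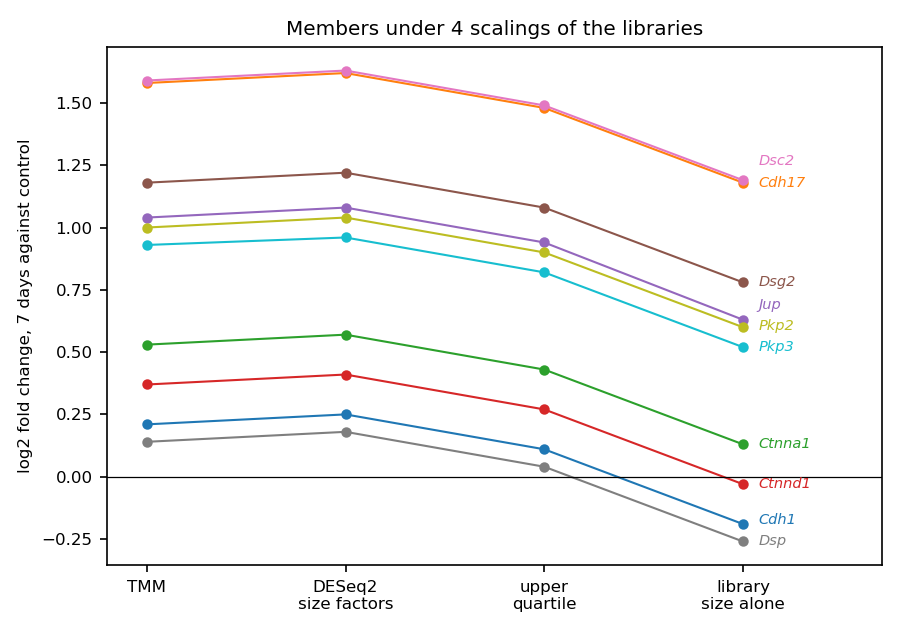
Log2 fold change at 7 days against control (vertical axis) of each gene under 4 ways of scaling the libraries (horizontal axis); each line is 1 gene. The lines run in parallel because a scaling moves all genes of a sample together. With library size alone Ctnnd1, Cdh1 and Dsp lie below 0.

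Within the 2-day and 7-day groups the members also moved largely in common between replicates. All 10 genes were highest in 2-day replicate 2, where 39.5% of all genes tested were highest, and 9 of the 10 were lowest in 2-day replicate 3. The share of all genes lowest in a replicate was not computed. At 7 days 8 of the 10 were highest in replicate 1 (41.3% of all genes), the exceptions being Dsg2 and Dsc2, which were highest in replicate 3. In the controls 5 were highest in replicate 1 (37.4% of all genes), and Dsg2, Dsc2 and Cdh17 in replicate 3 (42.2% of all genes). These control counts are not far from the shares of all genes. Dsg2 and Dsc2 were thus highest where Jup and Pkp3 were lowest, in replicate 3 of the controls and of the 7-day samples.

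The genes nearest in pattern over all 9 samples were found by the Euclidean distance of log2 CPM less each gene's control mean, among 12128 candidates. Nearest to Cdh17 were Tesk2, Bcar3 and Fam110c (distances 0.13, 0.16 and 0.17), with Tesk2 at 22.6, 32.3 and 68.9 CPM in the 3 groups. Nearest to Cdh1 were Shc1, Ctps2 and Tnfrsf21 (0.13 to 0.16). Jup lay nearest to Btbd2, Cnksr1 and Cttn (0.21 to 0.23), and Dsp nearest to Chd3, Kdm3b and Mob3a (0.17 to 0.22). Among the members themselves Jup and Pkp3 (0.32), Cdh1 and Dsp (0.32), and Pkp2 and Pkp3 (0.33) were the closest pairs, and Cdh17 and Dsp (2.6) the most distant.

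The gene lists that follow are read against all genes tested, of which 40.5% were called higher and 41.8% lower at 7 days, and 13.1% and 10.6% at 2 days. A share near these is not a result about the list. Counts with library size alone have another background, where 34.8% of the calls over all genes at 7 days were higher and the median log2FC was −0.435. Of 16 other adherens junction genes listed, 15 were tested; at 7 days 8 were called higher and 4 lower (median log2FC 0.36; 6 and 7 with library size alone), a share called close to that of all genes, and at 2 days 3 higher and 2 lower (median 0.00). Lima1, an actin-bundling protein linked to alpha-catenin, averaged 208 ± 5.68 CPM in controls and rose to 596 ± 16.9 CPM at 7 days (log2FC 1.52, edgeR adjusted p = 1.6e-10), and Camsap3, which anchors microtubules at junctions, from 29.3 ± 4.17 to 74.5 ± 7.9 CPM (1.35, edgeR adjusted p = 2.8e-08). Ajuba, a LIM protein of junctions, fell from 218 ± 13.7 to 85.4 ± 6.65 CPM (−1.35, edgeR adjusted p = 4.7e-10). Vcl, the actin-binding vinculin, which was not among the genes picked by rule and is named after its value was seen, fell from 149 ± 2.01 to 76.1 ± 3.52 CPM (−0.97, edgeR adjusted p = 1.5e-07).

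Among 12 remaining desmosome genes, many of them typical of stratified epithelium, 9 were tested, and at 7 days 4 were higher and 4 lower (median log2FC −0.08; 2 and 6 with library size alone), shares close to those of all genes. At 2 days edgeR called 0 higher (1 at an unadjusted p under 0.05, and 0 in limma-voom and DESeq2) and 3 lower, Dsg1a, Dsg1b and Dsg1c. Pkp1, the plakophilin of stratified epithelium, stood at 65.3 ± 4.01 CPM in controls, 65.3 ± 6.59 at 2 days and 32.5 ± 3.51 at 7 days, a fall (log2FC −1.01, edgeR adjusted p = 1.3e-07) beside the rise of Pkp2 and Pkp3. Ppl, the plaque protein periplakin, rose from 193 ± 12.7 to 275 ± 10.2 CPM. Dsg1c fell from 2.46 to 0.712 CPM, and Dsg3 and Dsg4 rose to 2.25 and 0.836 CPM, all of them far below Dsg2; Dsg1 genes are close copies, so their counts are uncertain. Dsc3 had 1, 3 and 1 counts over the 3 groups and Dsc1 2, 6 and 5.

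Classical cadherins other than E-cadherin were scarce. N-cadherin (Cdh2) fell from 1.86 ± 0.125 to 0.992 ± 0.125 CPM at 2 days and 0.422 ± 0.108 CPM at 7 days (log2FC −0.91 and −2.11, edgeR adjusted p = 0.002 and 4.4e-07), and P-cadherin (Cdh3) had 26, 19 and 15 counts over the groups, below the filter. Of 13 other cadherins listed 8 were tested, 5 higher and 2 lower at 7 days, and 1 higher and 1 lower at 2 days. Fat1, a giant atypical cadherin, rose from 109 ± 10.7 to 267 ± 31.9 CPM at 7 days (1.30, edgeR adjusted p = 2.2e-07) and Cdh16 from 1.06 to 3.76 CPM, while Celsr2 fell from 2.83 to 0.818 CPM.

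Of the 9 listed repressors of E-cadherin and mesenchymal genes, 4 passed the filter, the repressor Snai1 and the mesenchymal genes Cdh2, Vim and Fn1. All 4 fell by 7 days. The 3 that fell by 2 days were Cdh2, Vim and Fn1, and Snai1 was not called then (log2FC 0.28, edgeR adjusted p = 0.64). Cdh2 is also counted among the cadherins above. In edgeR 0 of the 9 listed genes were called higher at either time, with 0 at an unadjusted p under 0.05 and 0 in limma-voom and DESeq2. Vim, the mesenchymal filament vimentin, fell from 17.8 ± 1.47 to 5.46 ± 0.982 and 0.988 ± 0.179 CPM (log2FC −1.71 and −4.17, edgeR adjusted p = 1.9e-07 and 7.2e-12). Fn1 fell from 8.44 to 3.73 CPM by 7 days, and its 2-day samples overlapped the controls. Snai1 had 24, 31 and 3 counts over the groups, Zeb2 8, 6 and 4, Zeb1 1 in each and Snai2 none, so the repressors had few counts even in controls.

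The keratins to which desmosomes attach were called higher at 7 days in 5 of 5 cases (3 with library size alone) and at 2 days in 3, Krt8, Krt19 and Krt20. Krt20, a keratin of mature gut epithelium, averaged 2.95 ± 1.09 CPM in controls and rose to 23 ± 0.456 and 1108 ± 24.9 CPM (log2FC 2.98 and 8.57, edgeR adjusted p = 3.2e-09 and 2.2e-15). Krt19 rose from 2757 ± 549 to 12220.1 ± 2185 CPM by 7 days and Krt8 from 3824 ± 581 to 11860 ± 1764 CPM (SD, n = 3). Krt18 passed narrowly, at 2294 ± 309 and 2928 ± 613 CPM (edgeR adjusted p = 0.031), as did Krt7, at 1929 ± 304 and 2463 ± 369.9 CPM (edgeR adjusted p = 0.02). For Krt18 and Krt7 the 7-day samples overlapped the controls.

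Of 8 genes of cadherin cleavage and turnover, 4 were higher and 2 lower at 7 days (4 and 4 with library size alone), and 1, Adam15, was lower at 2 days. Adam10, the protease that sheds E-cadherin, averaged 117 ± 12 CPM in controls and rose to 194 ± 27.8 CPM by 7 days (log2FC 0.73, edgeR adjusted p = 8.2e-06), and Ncstn, a gamma-secretase subunit, from 86 ± 4.69 to 287 ± 32.6 CPM (1.74, edgeR adjusted p = 1e-10). Among 12 transcription factors known to act on these genes in gut, 11 were tested, with 7 higher and 3 lower at 7 days and 4 higher at 2 days. In edgeR 0 were lower at 2 days, with 0 at an unadjusted p under 0.05 and 0 in limma-voom and DESeq2. Hnf4a, a driver of enterocyte genes, rose from 242 ± 12.9 to 489.9 ± 49.3 and 1449.8 ± 133 CPM, and Hnf4g from 3.44 to 7.1 and 97.9 CPM. Grhl2, a grainyhead factor of epithelial junction genes, fell from 39.3 ± 0.705 to 18.7 ± 0.59 CPM at 7 days (−1.07, edgeR adjusted p = 7e-09). Cdx2, the factor known to act on Cdh17, averaged 171 ± 4.82, 178 ± 5.56 and 165 ± 9.98 CPM in the 3 groups; it was called in neither comparison with control and is named after its values were seen.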

How the data were processed

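Poly(A) RNA of 9 organoid samples was sequenced from libraries made with a kit that does not mark strand, per the labels' protocols. The authors deposited raw counts per gene as 1 table; STAR 2.7.0e, featureCounts, DESeq2 and the mm10 build are named per the submitters' processing notes, with no roles stated. No annotation release or strand setting was stated in the labels used. IDs were matched to GENCODE M21 (GRCm38), with 21236 of 21253 found. Counts were fitted with edgeR 4.0.16 (R 4.3.3; TMM scaling, filterByExpr, glmQLFit and glmQLFTest) over all 9 samples with group as the only term, and p-values were Benjamini-Hochberg adjusted over the 12535 genes tested. Library totals of 24143589 to 32277040 counts set the counting precision; replicates differed by more than counting noise in every pair (chi-square per degree of freedom of 4.24 to 38.3). TMM factors ranged from 1.073 to 1.125 (controls), from 1.093 to 1.117 (2 days) and from 0.785 to 0.874 (7 days). Ratios of partner genes were formed within a sample and compared by two-sided exact permutation tests. Alternatives were 3 other scalings, other filters, limma-voom (limma 3.58.1), DESeq2 1.42.0, a test against a 1.5-fold change, the compared groups alone, a replicate block and leaving out each sample. Scripts were tested on simulated data.

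The 10 genes and all gene lists were chosen with earlier results of these data known. Genes named outside the 10 are Ctnnb1, Apc, the 3 nearest in pattern, and genes taken from those picked by rule in each list. The rule picked up to 4 genes of smallest p at 7 days and the most abundant gene of each list. Not all genes so picked are named, Actn4 and Klf4 being among those left out, and others are named after their values were seen.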

Additional observations from a re-analysis of the deposited data

Results flagged for a closer look

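For 8 of the 10 genes the change from control differed between 7 and 2 days by edgeR's test of the difference (adjusted p under 0.05). Over all genes tested 79.1% were called in that comparison, so the count of 8 is near the share of all genes, and the sizes are given for each. In log2 units the 7-day change exceeded the 2-day change by 1.29 for Dsc2, 1.25 for Dsg2, 1.08 for Cdh17, 0.88 for Jup, 0.72 for Pkp2, 0.66 for Pkp3, 0.39 for Ctnna1 and 0.31 for Ctnnd1. With library size alone as the scaling, the values of Ctnna1 and Ctnnd1 were −0.03 and −0.11.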

How the results depend on the processing

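Of 594 recomputed log2 fold changes of the 10 genes, 554 kept their direction and side of the threshold, 19 no longer passed, 7 newly passed and 14 changed sign. All 168 recomputed ratio differences moved by less than the combined SD. For 21 of them with the longest transcript and 21 with no length scaling this was fixed in advance, since gene length cancels between groups. Leaving out 1 sample changed the sign for Dsp/Jup at 2 days (−0.13 to 0.05) and for Pkp3/Pkp2 at 2 days (−0.10 to 0.07) and 7 days (−0.16 to 0.01), whose groups overlapped. No ratio test could pass the threshold at this sample number. Library size alone gave, at 7 days, −0.19 for Cdh1, −0.03 for Ctnnd1 and −0.26 for Dsp, and against 2 days −0.35 for Cdh1, −0.03 for Ctnna1, −0.11 for Ctnnd1 and −0.40 for Dsp. With it 2 of the 10 genes were called lower in each of these 2 comparisons, and 24 listed context genes were lower at 7 against 2 days. Calls over all genes shifted too, with 34.8% of them higher at 7 days and 31.8% against 2 days, so these counts are not a result about the lists. Upper-quartile factors gave −0.05 for Cdh1 and −0.10 for Dsp against 2 days, and the 2 groups alone −0.01 for Dsp. Leaving out 1 sample each gave −0.16 to 0.01 for Dsg2 and −0.01 to 0.26 for Dsp at 2 days, and −0.12 to 0.15 for Dsp at 7 against 2 days; genes called lower at 2 days numbered 809 (without control replicate 2) to 1517. Testing against a 1.5-fold change left 0 of the 10 genes higher at 2 days and 5 at 7 against 2 days, 392 genes higher and 215 lower of all at 2 days, 3172 lower at 7 days, and 3031 higher and 2762 lower at 7 against 2 days, with 3 context genes higher and 1 lower at 2 days and 20 higher at 7 against 2 days. A mean of at least 5 CPM left 5 context genes lower at 2 days and 11 at 7 days, where fewer genes were tested. The cause of the other changes was not tested. With the replicate block 2076 genes were higher and 1963 lower at 2 days, in place of 1636 and 1333, 17 context genes in place of 11 were higher at 2 days, and Pkp3 passed at 2 days (log2FC 0.27). Same-numbered samples correlated at −0.13 to 0.48 and others at −0.437 to 0.169. Since not every same-numbered pair exceeded 0.1 and the labels name no shared source, the samples were treated as unpaired, although 6 of 9 correlated best with their own number, a hint of pairing from the data. Cdh1 and Cdh17 gave no value without the 100 most abundant genes, being among them.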
